A study of Rattus norvegicus with 6 samples.

Results

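The genes described here are 10 genes of the T cell receptor complex and its first signalling steps, Cd3d, Cd3e, Cd3g, Cd4, Cd8a, Cd2, Cd5, Lck, Lat and Zap70, out of 15168 genes named on the array. They were chosen by name, and a probe was taken as theirs where its accession maps to the gene; each gene was read by 1 probe. Colon RNA came from male rats, 3 of the S.LEW congenic strain (C1, C2, C3) and 3 S rats (S1, S2, S3), and each rat had its own single-color Agilent array. The S rat is the Dahl salt-sensitive strain, an inbred model of hypertension, and the S.LEW congenic strain, S.LEW(10)x12x2x3x5, carries a segment of chromosome 10 from the Lewis rat on the S background. All 6 rats had been injected with azoxymethane (AOM), a colon carcinogen, 2 times, beginning at an age of 6 weeks and at 15 mg per kg, and the colon was taken at an age of 30 weeks, so the data hold no untreated rat. The sources used here do not say which part or layer of the colon gave each RNA or whether it held tumor, and p-values measure the spread between single rats.

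The T cell receptor recognizes a peptide held by an MHC molecule, and the CD3 chains that surround it carry the signal into the cell. The kinase Lck, brought to the receptor by the coreceptors CD4 and CD8, phosphorylates the CD3 chains, Zap70 binds to them, and Zap70 then phosphorylates the adaptor Lat, on which downstream signalling is assembled. In the colon T cells lie among the epithelial cells, in the lamina propria and, together with B cells, in lymphoid follicles of the wall.

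The 10 genes were high in S1 and S3, and in S2 most were near the congenic level. Signals are normalized log2 values, on which a step of 1 is a 2-fold difference. Over the 8 of the 10 genes in the deposited table, the median gene stood 3.72 above the mean of the congenic rats in S1, 3.75 above it in S3 and at -0.0072 in S2. Over all 23997 probes the medians were -0.044, -0.050 and -0.015 in S1, S3 and S2, but quantile normalization holds these near 0. More than 2 above the congenic mean were 3.18% of all probes in S1, 2.54% in S3 and 0.29% in S2. Of the 8 genes, 6 were in S1, 6 in S3 and 0 in S2. Cd3e and Cd2 are not among those 8, because their probes were well above background on S1 and S3 alone and the table holds probes detected on at least 3 arrays. Values for these 2 genes come from the scanner files, normalized in the same way. A bulk measurement cannot tell fewer T cells from less RNA per cell.

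The arrays of S1 and S3 were also the brightest before normalization. Median intensity was 594 in S1 and 445 in S3, against 219 in S2, 273 in C1, 214 in C2 and 291 in C3. The share of spots well above background was 86.3% in S1 and 87.6% in S3, 83.2% in S2, and 80.9%, 73.8% and 78.5% in C1, C2 and C3. The part of array brightness in the results was not tested. Arrays with the same scan identifier in the scanner headers were taken as 1 slide. On that reading all 3 S arrays lay on slide 1 with C1, and C2 and C3 lay on slide 2, so S2 shared its slide with S1 and S3.

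**Figure D1:**
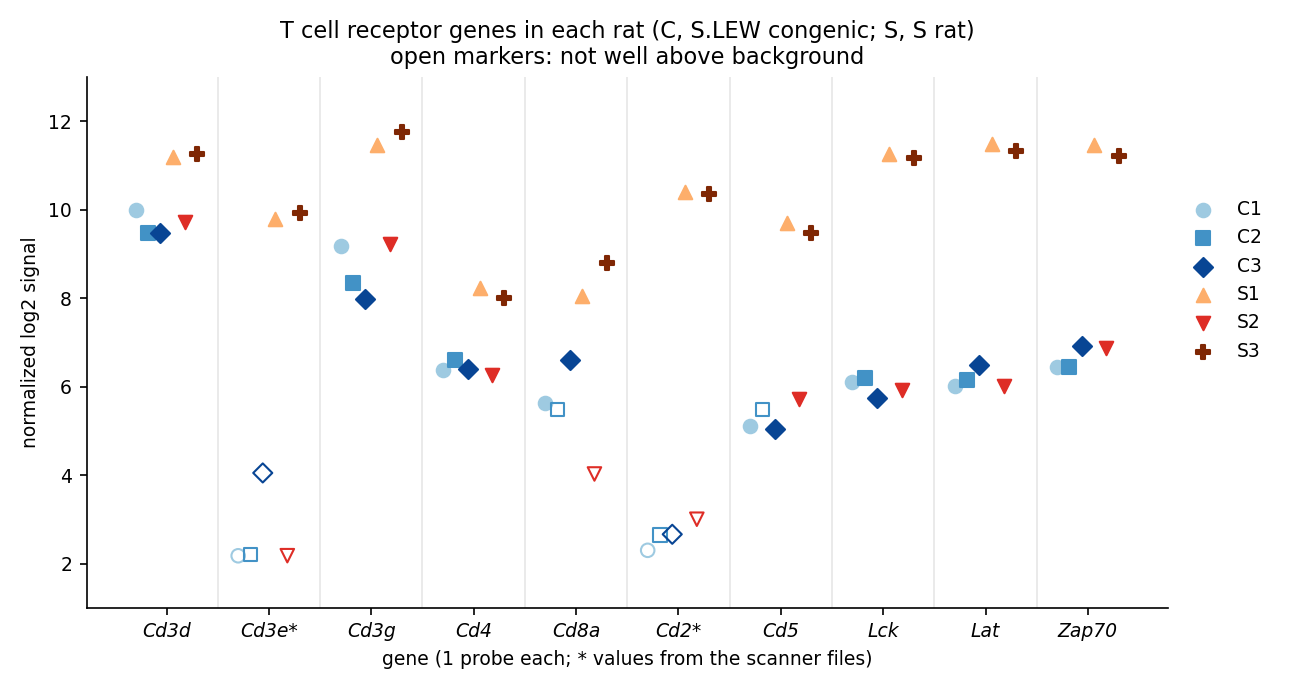
Normalized log2 signal (vertical axis) of the 10 genes (horizontal axis) in each rat, 1 point per rat, with open markers where the probe was not well above background. S1 and S3 lie above every other rat for all 10 genes, and S2 lies among or close to the congenic rats except for Cd8a, where its open marker lies below C1 and C3.

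Among the CD3 chains, the log2 signal of Cd3d was 10.00 in C1, 9.47 in C2, 9.47 in C3, 11.20 in S1, 9.72 in S2 and 11.25 in S3. Cd3g had 9.18 in C1, 8.34 in C2, 7.98 in C3, 11.45 in S1, 9.23 in S2 and 11.75 in S3. Cd3e, from the scanner files, had 2.18 in C1, 2.20 in C2, 4.05 in C3, 9.78 in S1, 2.18 in S2 and 9.93 in S3. For all 3 chains S1 and S3 were the highest rats. S2 was within the congenic range for Cd3d and just above C1 for Cd3g, whose strains did not overlap, and for Cd3e it was not well above background. The log2 fold change, congenic against S, was -1.08 for Cd3d (limma adjusted p = 0.384, standard error 0.45) and -2.31 for Cd3g (limma adjusted p = 0.320, standard error 0.71). On no congenic array was Cd3e well above background, which leaves a bound, at least 4.85-fold lower in the congenic strain; this bound sets the mean of the S rats against the lowest signal that counted as well above background on each congenic array, or the probe's own where higher. Where S2 was not well above background, as here, its measured value still entered that mean of the S rats, so the bound is approximate. For Cd3e the bound was 28.6-fold without S2, 2.05-fold without S1 and 1.95-fold without S3, and limma gave an adjusted p of 0.412. The exact permutation test, two-sided, gave p = 0.10 for Cd3g, the smallest that 3 rats against 3 allow, and 0.20 for Cd3d.

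The 3 CD3 genes are neighbors on chromosome 8 in the RefSeq annotation of GRCr8, in the order Cd3g, Cd3d, Cd3e with no annotated gene between them. A link between position and signal was not tested. The other members lie on chromosomes 1 (Cd5 and Lat), 2 (Cd2), 4 (Cd4 and Cd8a), 5 (Lck) and 9 (Zap70), and none lies on chromosome 10, which holds the congenic segment.

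The coreceptors were Cd4, of helper T cells and some macrophages, and Cd8a, of cytotoxic and many intraepithelial T cells. Cd4 had a log2 signal of 6.37 in C1, 6.60 in C2, 6.39 in C3, 8.22 in S1, 6.26 in S2 and 8.00 in S3. Cd8a had 5.63 in C1, 5.48 in C2, 6.61 in C3, 8.04 in S1, 4.03 in S2 and 8.80 in S3. C2 and S2 were not well above background for it. S2 was the lowest of the 6 rats for Cd4 and below C1 and C3 for Cd8a, and the strains overlapped for both. The log2 fold change was -1.04 for Cd4 (limma adjusted p = 0.422, standard error 0.52) and -1.05 for Cd8a (limma adjusted p = 0.682, standard error 1.21), and the exact permutation test, two-sided, gave p = 0.40 and 0.60. For Cd8a it was -2.51 without S2, -0.50 without S1 and -0.13 without S3, and for Cd4 -1.66 without S2 and -0.68 without S1. The partner chain Cd8b, on the list of other signalling genes and singled out after its values were seen, did not have this pattern. The log2 signal of Cd8b was 8.77 in C1, 8.98 in C2, 8.39 in C3, 8.22 in S1, 10.14 in S2 and 9.61 in S3, so that S2 was the highest rat and S1 the lowest.

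Cd2, an adhesion receptor of T and NK cells, and Cd5, a receptor of T cells that dampens signalling, were the accessory receptors. Cd2, from the scanner files, had a log2 signal of 2.30 in C1, 2.65 in C2, 2.66 in C3, 10.40 in S1, 3.00 in S2 and 10.34 in S3. Cd5 had 5.11 in C1, 5.48 in C2, 5.03 in C3, 9.70 in S1, 5.72 in S2 and 9.46 in S3. For Cd2 no array but those of S1 and S3 was well above background, so the order of the other 4 rats is not known. For Cd5 the strains did not overlap, yet S2 lay far nearer to the congenic rats than to S1 and S3, and C2 was not well above background. In the congenic strain Cd2 was at least 7.46-fold lower (adjusted p = 0.350 from limma without a filter), a bound of 40.9-fold without S2, 3.15-fold without S1 and 3.22-fold without S3. Cd5 had a log2 fold change of -3.09 (limma adjusted p = 0.339, standard error 1.04). The two-sided exact permutation test gave p = 0.10 for Cd5.

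The genes of the signalling proteins inside the cell showed the pattern with wide gaps. Lck had a log2 signal of 6.11 in C1, 6.20 in C2, 5.74 in C3, 11.25 in S1, 5.92 in S2 and 11.17 in S3. Zap70 had 6.43 in C1, 6.43 in C2, 6.91 in C3, 11.47 in S1, 6.87 in S2 and 11.21 in S3. Lat had 6.01 in C1, 6.14 in C2, 6.48 in C3, 11.49 in S1, 6.01 in S2 and 11.33 in S3. S2 lay inside the congenic range for all 3, so the strains overlapped, while S1 stood 5.23, 4.88 and 5.28 above the congenic mean for Lck, Zap70 and Lat and S3 stood 5.15, 4.62 and 5.12 above it. The congenic rats were close together, with an SD (n = 3) of 0.24 for Lck, 0.28 for Zap70 and 0.24 for Lat, against 3.05, 2.59 and 3.12 among the S rats. The log2 fold changes were -3.43 for Lck, -3.26 for Zap70 and -3.40 for Lat, with standard errors of 1.41, 1.20 and 1.44. Adjusted p values from limma were 0.383, 0.357 and 0.388, and the two-sided exact permutation test gave p = 0.30, 0.20 and 0.30.

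Promoter sequences of 9 of the 10 genes (not Cd4) were matched in RefSeq for GRCr8, 10 windows in all because Lck has 2, each running from 250 bases before to 50 after a start. They are shown for Cd2 and Cd3e, the genes whose signal was near background outside S1 and S3, and for both starts of Lck, which had the largest fold change of the 8 members in the deposited table. Capitals mark the letters GGAAGT, a core bound by ETS factors, and TGTGGT, a core bound by RUNX factors, on either strand.
Cd2 (chr2:191412610-191412909, minus strand): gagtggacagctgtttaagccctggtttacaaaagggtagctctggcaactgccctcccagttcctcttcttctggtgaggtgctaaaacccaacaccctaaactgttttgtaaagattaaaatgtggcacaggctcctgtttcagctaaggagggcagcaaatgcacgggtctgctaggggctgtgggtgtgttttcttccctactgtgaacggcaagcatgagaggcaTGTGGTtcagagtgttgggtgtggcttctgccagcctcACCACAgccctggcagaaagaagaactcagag
Cd3e (chr8:54211721-54212020, minus strand): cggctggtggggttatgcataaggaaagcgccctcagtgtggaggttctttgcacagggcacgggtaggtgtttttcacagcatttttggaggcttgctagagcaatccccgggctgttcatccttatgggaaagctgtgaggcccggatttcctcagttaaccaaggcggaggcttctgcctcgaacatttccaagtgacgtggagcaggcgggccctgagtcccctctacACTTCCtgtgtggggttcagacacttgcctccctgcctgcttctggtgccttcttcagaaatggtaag
Lck (chr5:147201218-147201517, minus strand): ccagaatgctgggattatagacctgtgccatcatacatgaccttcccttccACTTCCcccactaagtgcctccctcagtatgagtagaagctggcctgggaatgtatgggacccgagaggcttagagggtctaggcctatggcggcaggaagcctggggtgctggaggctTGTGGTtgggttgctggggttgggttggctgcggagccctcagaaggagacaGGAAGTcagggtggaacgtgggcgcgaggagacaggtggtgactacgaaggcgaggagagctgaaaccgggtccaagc
Lck (chr5:147183601-147183900, minus strand): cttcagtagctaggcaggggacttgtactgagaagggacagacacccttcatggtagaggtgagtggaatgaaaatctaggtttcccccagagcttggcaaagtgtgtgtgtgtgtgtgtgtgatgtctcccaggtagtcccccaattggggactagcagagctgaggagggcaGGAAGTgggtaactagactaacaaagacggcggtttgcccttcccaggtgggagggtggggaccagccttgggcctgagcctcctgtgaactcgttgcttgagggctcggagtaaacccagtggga
GGAAGT was in 5 of the 10 windows (Cd3d, Cd3e, Cd5 and both of Lck) and in 22.6% of all 33469 promoters, and TGTGGT was in 3 (Cd2, Lat and a window of Lck) and in 17.3%. The E-box letters CANNTG, not marked, were in 8 windows and in 72.1% of promoters. AGATAA, bound by GATA factors, and the TATA box letters TATAAA were in none of the 10 windows and in 11.6% and 14.2% of promoters. Matches of different motifs may overlap, and a match describes the window and shows no binding.

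At the cut-offs of the study, an unadjusted p under 0.05 and a 2-fold change, limma called 5 of the 8 genes in the deposited table lower in the congenic rats (Cd3d, Cd3g, Cd5, Lck and Zap70), against 562 probes or 2.34% of all 23997. With no filter on dim probes it called 4 of all 10 (Cd2, Cd3g, Cd5 and Zap70), against 2.01% of 30367 probes. No member and no probe had an adjusted p under 0.05 (0 of 23997, 0%, from limma, and 0 by the methods' t-test), although 3115 probes had an unadjusted p under 0.05 from limma. The methods' t-test called none of the members. Every congenic rat was below every S rat for 2 of the 8 genes (Cd3g and Cd5), and for 5.33% of all probes. The median log2 fold change of the 8 was -2.70, against 0.014 over all probes. Limma called 776 probes (3.23%) higher in the congenic rats, and with scaling to the 75th percentile in place of quantile normalization the split was 762 lower and 692 higher.

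These counts rested on which rats were in the fit. Over all probes, limma called 1725 lower without S2, against 536, 336, 357, 330 and 192 without C1, C2, C3, S1 and S3. Limma called 8 of the 8 genes lower without S2 and 1 without C1 (Cd3g), 2 without C2 (Cd3g and Cd5), 0 without C3, 1 without S1 (Cd3g) and 0 without S3. Without S2 the probes called lower were 7.19% of the table, and all 8 genes had an adjusted p under 0.05 from limma, as did 2554 probes (10.6%) that were lower. The adjusted p of the 8 genes then lay between 0.000691 (Lck and Lat) and 0.0182 (Cd8a) from limma, with log2 fold changes from -5.20 (Lat) to -1.58 (Cd3d). Setting aside a rat that differs from the rest of its strain narrows the spread, and nothing in the labels marks S2 as different. As a whole array, S2 correlated more closely with each congenic array than with S1 or S3. With the slide as a block, or on slide 1 alone where the spread of the S rats stood for that of C1 as well, limma called none of the 8. The log2 fold changes on slide 1 were -1.63 for Cd3g, -3.34 for Lck and -3.60 for Lat.

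**Figure D2:**
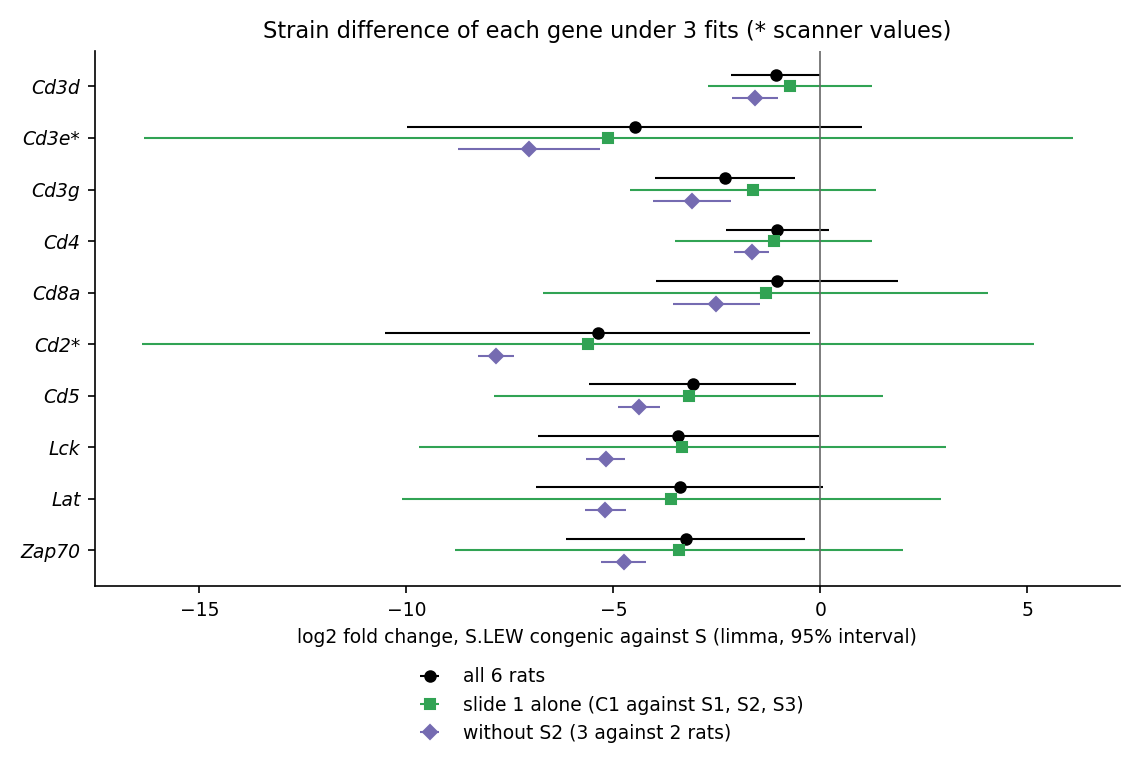
Log2 fold change of each gene, S.LEW congenic against S (horizontal axis), with 95% intervals from limma, for all 6 rats, for slide 1 alone and without S2. Points of Cd2 and Cd3e rest on congenic values near background. All points lie below 0; the intervals exclude 0 for all 10 genes without S2 and for none on slide 1 alone.

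Beyond the members, 41 genes of T cell receptor signalling were followed. Of these, 32 had a probe and 27 were in the deposited table, of which limma called 8 (29.6%) lower and 0 higher in the congenic rats, with a median log2 fold change of -1.48. Txk, among the 8 and singled out after its values were seen, had no congenic array well above background. It entered the table through the S rats alone, so no conclusion is drawn from its call in this or any other fit. The 8 and the 29.6% include its call. S1 and S3 were each above every congenic rat for 24 of the 27, and S2 for 3. Without S2 limma called 19 lower, and without C1, C2, C3, S1 or S3 it called 2, 2, 1, 1 and 1. The adjusted p ranged from 0.290 to 0.996 in the fit of all 6 rats.

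The lowest p on this list was that of Nfatc2, a transcription factor switched on by calcium signals, whose log2 signal was 6.44 in C1, 6.11 in C2, 6.21 in C3, 7.76 in S1, 6.76 in S2 and 7.33 in S3. Here the strains did not overlap and S2 lay between the strains' other rats, with a log2 fold change of -1.03 (adjusted p = 0.290 from limma). Sit1, an adaptor that dampens receptor signals, had a log2 fold change of -2.66 (adjusted p = 0.352 from limma), and Fyn, a kinase related to Lck, -1.70 (adjusted p = 0.358 from limma). Dgka, a diacylglycerol kinase and the brightest gene of the list, had 12.12 in C1, 11.86 in C2, 12.09 in C3, 13.87 in S1, 11.75 in S2 and 13.81 in S3. It was not called. The zeta chain Cd247, which carries most of the signalling motifs of the receptor, was 1 of 5 genes (with Grap2, Skap1, Trat1 and Sh2d1a) whose probes were well above background on S1 and S3 alone. It had 10.47 in S1 and 10.69 in S3 against 3.57 in S2. In the congenic strain Cd247, singled out after its values were seen, was at least 9.36-fold lower (limma adjusted p = 0.407 without a filter), a bound of 47.3-fold without S2, 4.33-fold without S1 and 4.01-fold without S3.

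**Figure D3:**
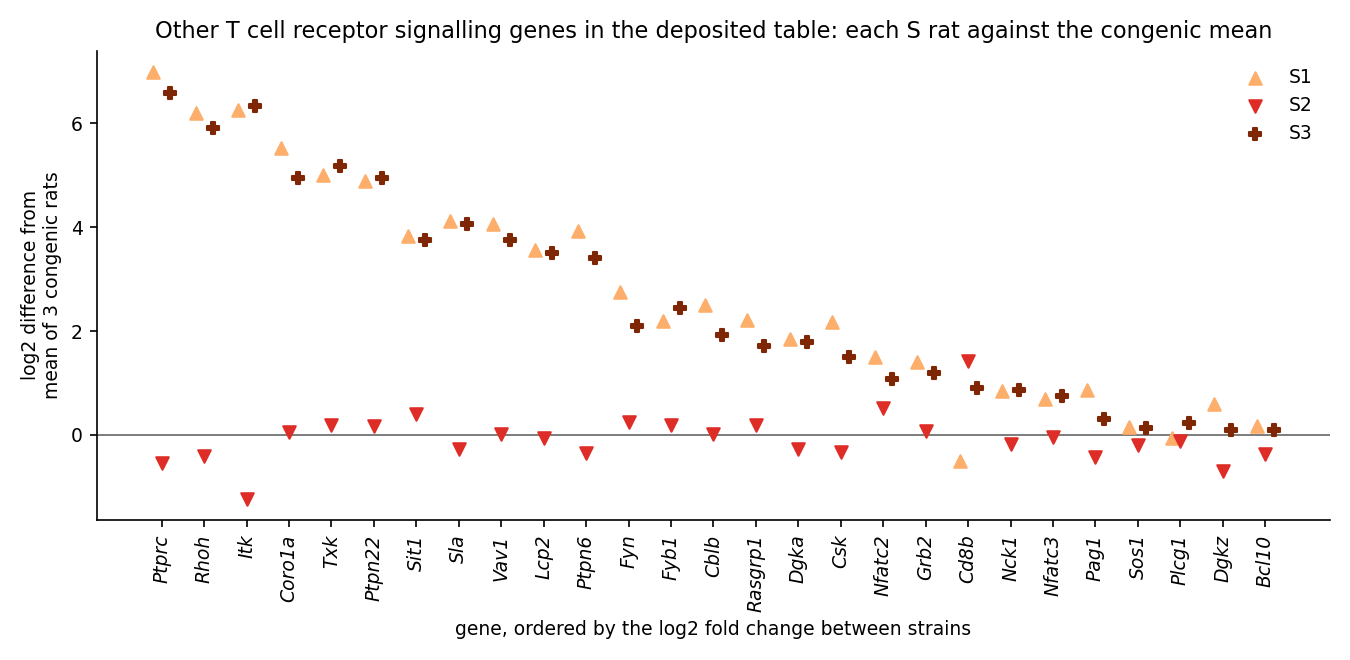
Difference of each S rat from the mean of the 3 congenic rats (vertical axis, log2) for the 27 other signalling genes in the deposited table, ordered by the fold change between strains. S1 and S3 lie together and above 0 for most genes, S2 lies near 0, and for Cd8b S2 is the highest rat.

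Other T cell genes were read from 4 lists. Of 22 costimulation and checkpoint receptors 11 were in the deposited table, and limma called 2 lower, Pdcd1 (log2 fold change -1.40) and Ctla4 (-1.40), both receptors that restrain T cells. Neither was well above background on C2 or C3, so the size of these 2 differences is uncertain. Another 9, outside the table, among them Cd28, Icos and Cd27, were well above background on S1 and S3 alone. Without S2 the count was 9, and it was 2, 0, 1, 0 and 0 without C1, C2, C3, S1 and S3. Lag3, singled out after its values were seen, had no congenic array well above background. It entered the table through the S rats alone, so no conclusion is drawn from any call of Lag3. Havcr2, another inhibitory receptor, had a log2 fold change of -0.76 and was not called. The brightest probe, that of Btla, had -0.12 and did not show the pattern, while a dimmer Btla probe had 3.81 to 6.03 in the congenic rats, 9.47 in S1, 4.51 in S2 and 9.18 in S3.

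Among the 16 T cell transcription factors 11 were in the table, and limma called 3 lower. Bcl6, the factor of follicular helper T cells and germinal center B cells, had a log2 signal of 8.44 in C1, 8.57 in C2, 8.36 in C3, 11.47 in S1, 9.59 in S2 and 11.03 in S3. In this gene S2 was above all 3 congenic rats, and the log2 fold change was -2.24 (limma adjusted p = 0.231, standard error 0.48). Ikzf1 and Ets1, lymphoid factors, had -2.03 and -2.87. Tbx21, the brightest, had 13.84, 13.55 and 13.55 in the congenic rats and 13.71, 14.10 and 13.39 in the S rats. The count was 7 without S2 and 1 without any other single rat.

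The list of 24 cytokines, cytokine receptors and homing receptors had 17 genes in the table, of which limma called 6 lower. S1pr1, the receptor by which lymphocytes leave lymphoid tissue, had a log2 fold change of -2.31, Cxcr5, which draws cells into follicles and was not well above background on C2 or C3, -2.09, and the interleukin 2 receptor chains Il2rb and Il2rg -2.62 and -2.69. Il2rg, the brightest, had 10.27, 9.45 and 9.62 in the congenic rats, 14.02 in S1, 9.90 in S2 and 13.51 in S3. Without S2 the count was 13, without S1 it was 1, and it was 0 without C1, C2, C3 or S3. Ifng was well above background on no array.

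Of 16 cytotoxic and NK cell genes 7 were in the table and 0 were called in either direction, with a median log2 fold change of -0.28. Without C2, and on slide 1 alone, 1 was called lower, and 0 without any other single rat. Whether this list differs from the others was not tested. Cst7, Gzmm and Nkg7 had log2 fold changes of -0.53, -0.62 and -0.38. Gzmb, a granule protease and the brightest, had 11.17 in C1, 11.65 in C2, 11.14 in C3, 10.11 in S1, 12.58 in S2 and 11.77 in S3, so that S2 was the highest rat and S1 the lowest, as for Cd8b. A dimmer Gzmb probe was well above background on S1 and S3 alone. Of the 7 genes outside the table, 5 (Gzma, Prf1, Klrd1, Ncr1 and Ctsw) were well above background on S1 and S3 alone, and the count of calls and the median leave them out. Klrb1 and Klrg1 were well above background on no array.

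Markers of some other cells moved with the T cell genes. Of 14 B cell markers 8 were in the deposited table, and limma called 4 lower in the congenic rats, among them Pou2af1 (log2 fold change -3.80), Spib (-2.85, the brightest) and Cd72, with 7 called without S2 and 0 without any other single rat. Their summed signal, on the linear scale, was 2289 in C1, 2302 in C2, 2309 in C3, 64617 in S1, 2461 in S2 and 43368 in S3. Cd79b, Blk, Cr2 and Fcer2 were well above background on S1 and S3 alone. Pax5, a B cell factor singled out after its values were seen, did not move with the T cell genes. For Pax5 the log2 fold change was -0.016, and S1, S2 and S3 stood at -0.037, 0.39 and -0.30 from the congenic mean. Cd72, at 11.45 and 10.86 in S1 and S3 but 4.67 in S2, had no congenic array well above background. It entered the table through the S rats alone, so no conclusion is drawn from its call among the 4 or among the 7 without S2. In the congenic strain Cd72 was at least 15.4-fold lower, a bound of 69.2-fold without S2, 6.59-fold without S1 and 8.08-fold without S3.

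Of 6 markers of lymphoid stroma, the fibroblasts and vessels of lymphoid follicles, 4 were in the table and limma called 3 lower. Ccl21 (log2 fold change -2.69, the brightest), Ccl19 (-6.50) and Madcam1 (-2.99) were called, and the count was 4 without S2 and 1 without any other single rat. Ccl19 was not well above background on C2 or C3, so the size of its difference is uncertain. The summed signal was 2243 in C1, 1313 in C2, 4727 in C3, 54627 in S1, 6313 in S2 and 40767 in S3. Glycam1 was well above background on S1 and S3 alone, and Fdcsp on no array. Of 8 plasma cell markers 6 were in the table, with Mzb1 (-2.53) and Derl3 (-1.74) called lower and Sdc1, the brightest and also an epithelial gene, at 0.77 in the other direction. Plasma cell markers called lower numbered 0, 2, 0, 1, 2 and 0 without C1, C2, C3, S1, S2 and S3. Irf4 was well above background on S1 and S3 alone. Of the 6 plasma cell markers, S1 was above every congenic rat for 2 and below every one for 2, and S3 for 4 and 2. The summed plasma cell signal was lower in the S rats, at 15202, 16238 and 15205 in C1, C2 and C3 and 10266, 12105 and 11488 in S1, S2 and S3.

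Macrophage markers were mixed. All 14 were in the table, and limma called Csf1r lower (log2 fold change -1.42) and Cd163 (1.85) and Mrc1 (1.03) higher in the congenic rats. Another Csf1r probe had a log2 fold change of -0.25 and was not called. Without S2 limma called 8 lower, and without any other single rat 0; 1 or 2 were called higher without each rat. Cd163 had a log2 signal of 6.67 in C1, 7.98 in C2, 7.88 in C3, 4.89 in S1, 6.40 in S2 and 5.69 in S3. Over the 14 markers, S1 and S3 were each above every congenic rat for 9, and S2 was below every congenic rat for 12. The brightest, Lyz2, had 11.68, 12.00 and 12.19 in the congenic rats, 15.66 in S1, 11.62 in S2 and 15.20 in S3. The summed macrophage signal was 12969, 16297 and 18088 in C1, C2 and C3 and 80911, 12292 and 62814 in S1, S2 and S3.

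Smooth muscle markers ran the other way. All 10 were below every congenic rat in S1 and in S3, and none was in S2. The summed signal was 692100 in C1, 723200 in C2, 792870 in C3, 217360 in S1, 822890 in S2 and 438330 in S3, with Actg2 the brightest gene. Limma called 1 of 10, Smtn (log2 fold change 1.12), higher in the congenic rats. The count was 8 without S2 and 0 without any other single rat. Over all probes, limma called 2397 higher without S2, and from 477 to 706 with any other single rat left out. Mylk and Lmod1 had log2 fold changes of 1.08 and 1.49. Of 11 epithelial markers limma called Vil1 (1.01) higher, with Krt20 at 0.99 and Lgals4, the brightest, at 0.80; all 11 were above 0. The epithelial count was 0, 1, 5, 0, 2 and 2 without C1, C2, C3, S1, S2 and S3. For 7 of the 11, every congenic rat was above every S rat, as for 12.4% of all probes. The summed epithelial signal was 262460, 233970 and 199470 in C1, C2 and C3 and 126520, 152370 and 126030 in S1, S2 and S3.

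The 5 adipocyte markers in the table all had log2 fold changes above 0, with no gap between S2 and the other S rats. Limma called 2 higher, Cfd (log2 fold change 1.57, the brightest) and Adipoq (1.91), 3 without S1 and 2 without any other single rat. Fabp4 had 0.79, and the summed signal was 1489, 2150 and 3653 in C1, C2 and C3 and 946, 823 and 892 in S1, S2 and S3. Of 5 endothelial markers none was called, with 1 called lower without S2 and 0 without any other single rat; Pecam1, also present on leukocytes, had -1.14, Kdr, the brightest, -0.27, and Tek 0.23. The part that the cell makeup of each sample has in the T cell receptor results was not tested.

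**Figure D4:**
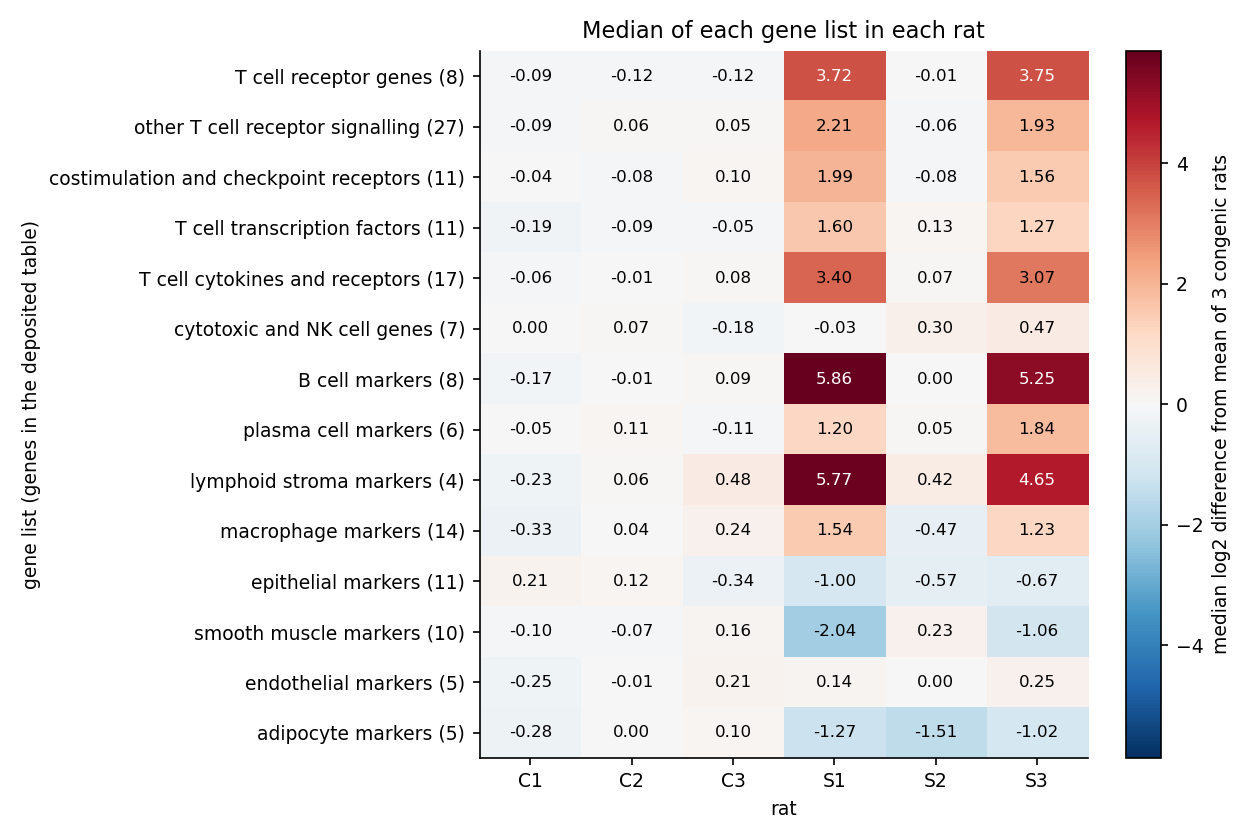
Median over the genes of each list (rows, with the number in the deposited table) of the log2 difference from the mean of the 3 congenic rats, for each rat (columns). The T cell lists other than the cytotoxic and NK list are high in S1 and S3 and lower in S2. So, by this median, are the B cell, lymphoid stroma, plasma cell and macrophage lists, although the summed plasma cell signal was lower in the S rats. Smooth muscle markers are lowest in S1 and S3.

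Outside all lists, the 10 genes most like the mean profile of the 8 members, by root mean square distance between mean-centered log2 signals over the 6 rats, were Rarres1, Arhgap4, Fgr, Relt, Gimap5, Icam2, RT1-Bb, Mfng, Laptm5 and Tmem156. Distances ran from 0.078 for Rarres1 to 0.20 for Tmem156, while the members themselves lay 0.42 (Cd5) to 0.96 (Cd3d) from their own mean. Rarres1 had a log2 signal of 7.16 in C1, 7.22 in C2, 7.32 in C3, 10.63 in S1, 7.06 in S2 and 10.71 in S3. Fgr, a kinase of myeloid and B cells, RT1-Bb, a class II MHC chain, and Laptm5, a lysosomal protein of leukocytes, had log2 fold changes of -2.36, -2.45 and -2.26. Among the 10, limma gave an unadjusted p under 0.05 to Relt and Laptm5, whose adjusted p values were 0.381 and 0.381.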

How the data were processed

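Colon RNA of 6 rats was labeled with Cy3. Per the file headers and the submitters' processing notes, Agilent Feature Extraction 11.0.1.1 gave each spot a background-corrected intensity, and per the labels and the study's methods the authors quantile-normalized these in GeneSpring and deposited log2 values for 23997 probes detected in at least 3 of 6 samples. Medians of the deposited log2 columns were 8.55 to 8.57, and their scale was taken from a match to the log2 scanner intensity of the same array (r of at least 0.9986). Flags for signal well above background came from the scanner files, whose unfiltered values (30367 probes, outlier spots left out, quantile-normalized) served for Cd2, Cd3e and other probes outside the table. Accessions of 18005 probes matched RefSeq genes of GRCr8; the array's own annotation is of another assembly.

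For the comparison of strains, lmFit and eBayes of limma (version 3.58.1, R 4.3.3) were run without covariates over all probes, with Benjamini-Hochberg adjustment, after the fit was tested on simulated data. The number of arrays limits the precision. The probe with the highest mean signal stood for a gene. The members and the 13 gene lists were chosen with earlier results of these data known. Values are given for all members and, from each list, for the 3 genes of lowest p and the brightest. The 10 genes most like the members are all named, and values are given for some of them. Genes singled out later are marked so. Alternatives were scanner values, scaling to the 75th percentile, normexp (offset 50), other filters, the methods' t-test, array weights, slide and replicate number as blocks, the mean over a gene's probes, and leaving out each rat. One gene among the markers of other cells is not reported here by name, and it stays in the counts and sums.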

Additional observations from a re-analysis of the deposited data

How the results depend on the processing

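Across 152 refits of the 10 members under the alternatives, all 152 log2 fold changes were below 0, 45 lost an unadjusted p under 0.05 and 11 gained one. The counts moved as follows, and apart from fewer samples or probes in a fit the cause was not tested. With each rat left out in turn, members called lower ranged from 0 to 8, members with adjusted p under 0.05 from 0 to 8, members with strains not overlapping from 2 to 8, other signalling genes called lower from 1 to 19 and probes called lower from 192 to 1725. The methods' t-test gave 0 members, 1 other signalling gene and 178 probes. With the slide as a block there were 0 members, 0 other signalling genes and 227 probes, and on slide 1 alone 0, 0 and 187, with 4 members not overlapping. With array weights limma called 8 members, all 8 also at an adjusted p under 0.05, 19 other signalling genes and 1744 probes, with 12474 of all 23997 probes at an adjusted p under 0.05, but the estimate of the weights did not converge (29.2 for S3, 0.12 for S2). Probes well above background on all 6 arrays gave 342 probes called and 1 member not overlapping, and no filter gave 5 other signalling genes.

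Signs turned for genes that were not called: with array weights Btla (0.080) and Tbx21 (0.24), with the slide as a block and on slide 1 alone Tbx21 (0.11) and Tek (-0.27), and without S2 Btla (0.024), Tbx21 (0.099) and Gzmb (0.38), whose lowest values with a rat left out were -0.23, -0.26 and -0.86. The replicate numbers did not pair the rats, since deviations from the strain means correlated at -0.016, -0.13 and -0.061. With the replicate block 6 members and 744 probes were called lower. Signal over background limits Cd2, Cd3e and Cd8a, whose values near background give bounds or wide errors, and Cd5, which was not well above background on C2 and falls out of the filter on all 6 arrays. Fold changes of Havcr2, Ikzf1, Ets1, Il2rb and Mzb1 also include a C2 value not well above background.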
